A study of Mus musculus with 9 samples.

Results

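Circular RNAs whose deposited annotation lists 6 or more exons were examined in mouse liver after acetaminophen overdose. A ring was taken when its feature entry began with an exon, held 6 or more exons and named 1 host gene. This left 55 of 11312 rings in the table (0.486%). The comparison classes were 7728 rings of 2 to 5 listed exons and 2723 rings of 1 listed exon. The 9 libraries came from livers of WT C57 BL6 mice, 8 weeks of age and weighing about 20 g. The control group (n = 3) had received saline, the APAP group (n = 3) an intraperitoneal dose of 500 mg/kg acetaminophen, and the dmPGE2+APAP group (n = 3) 300 µg/kg dmPGE2 by the same route 1 h ahead of that dose. All livers were collected 6 h after the acetaminophen injection. Acetaminophen is a painkiller that injures hepatocytes in overdose, and dmPGE2 is a stable analogue of prostaglandin E2. The labels do not say which animal gave which library, so p-values measure only the spread between these samples.

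A circular RNA arises when the spliceosome joins the donor at the end of a downstream exon to the acceptor at the start of an upstream one, a step called back-splicing. The product has no free ends and withstands exonucleases that clear linear RNA. Only a read across the back-splice junction identifies the ring. Such a read shows the 2 outer exons, and not which exons lie between them. In bulk liver, fewer cells of a type and less RNA per cell cannot be told apart.

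Libraries held 69268 to 154449 back-splice reads, apart from control 3 with 4362. In control 3 a single read equalled 229 CPM, back-splice reads scaled to a library total of 1e+06, a count of 0 allowed up to 3 reads (688 CPM), and the TMM scaling factor was 2.18 against 0.865 to 1.04 in the other 8 libraries. Values without control 3 are given beside the results it moves most. Of 10 hepatocyte marker genes, 8 hosted a ring, with a summed level of 459 to 1539 CPM in controls, 1800 to 2353 CPM after APAP and 1593 to 1978 CPM after dmPGE2+APAP. Fga and Ttr hosted none. Cps1 was the only gene of the 6 cell type marker lists that hosted a ring of 6 or more exons. Markers of sinusoidal endothelium gave 780 to 2209 CPM over the 9 libraries, and those of Kupffer cells and macrophages 0 to 1702 CPM. The part of cell composition in the results was not tested.

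The junctions below carry the identity of the rings, since each is found only in the circle and not in the linear transcript. They are the coding junctions among the 10 most abundant rings, together with a second junction of Pdia5 and both junctions of Vwa8, which show rings that start at one acceptor and close from different donors, and 1 junction of Rmdn2, whose rings are described with the changes between groups. Each line runs 5′ to 3′ on the host strand, with the last 30 bases of the donor exon side in lower case and the first 30 bases of the acceptor exon side in capitals. Bases were read from GENCODE M21 transcripts (GRCm38). In 44 rings both sides were coding, and 7 with a side not wholly coding, Aass, Bckdhb and Nfkb1 among them, are named only.
Gigyf2 mmu_circ_0000057: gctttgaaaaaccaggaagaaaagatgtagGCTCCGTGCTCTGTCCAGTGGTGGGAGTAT
Psd3 mmu_circ_0001682: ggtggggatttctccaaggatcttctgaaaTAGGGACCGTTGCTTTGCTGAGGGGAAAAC
Dcaf8 novel_circ_0006985: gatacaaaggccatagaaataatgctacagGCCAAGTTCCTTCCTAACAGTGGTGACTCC
Abcc2 novel_circ_0006321: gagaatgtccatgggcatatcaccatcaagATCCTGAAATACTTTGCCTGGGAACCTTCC
Glt1d1 novel_circ_0010881: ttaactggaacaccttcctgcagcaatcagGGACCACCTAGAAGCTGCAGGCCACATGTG
Strn3 mmu_circ_0000372: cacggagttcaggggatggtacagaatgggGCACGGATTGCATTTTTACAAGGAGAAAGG
Pdia5 novel_circ_0004542: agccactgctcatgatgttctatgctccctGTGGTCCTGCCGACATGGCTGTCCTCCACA
Pdia5 novel_circ_0004537: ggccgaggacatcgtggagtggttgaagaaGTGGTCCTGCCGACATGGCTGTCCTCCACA
Vwa8 novel_circ_0003651: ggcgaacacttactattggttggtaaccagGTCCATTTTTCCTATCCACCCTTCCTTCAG
Vwa8 novel_circ_0003652: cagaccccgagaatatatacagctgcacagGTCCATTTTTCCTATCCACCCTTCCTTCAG
Rmdn2 novel_circ_0005332: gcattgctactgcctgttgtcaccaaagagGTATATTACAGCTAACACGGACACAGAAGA

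The table listed many short exons for these rings. Of the 55, 46 listed 6 exons, 8 listed 7 and 1 listed 9, and none listed 8. The ring with 9 came from Pdia5 (novel_circ_0004537), which encodes a protein disulfide isomerase of the endoplasmic reticulum. The listed exons summed to 394 to 933 bases per ring (median 590), against a median of 324 bases in rings of 2 to 5 exons and 149 in rings of 1. The longest sum belonged to Aass (novel_circ_0012103, 933 bases) and the shortest to Acer3 (mmu_circ_0001600, 394 bases). The median of the mean listed exon length was 96.2 bases, shorter than the 123 bases of rings of 2 to 5 exons and the 149 bases of rings of 1, and 54 of 55 rings averaged under 150 bases per exon. Over the whole table no exonic ring had a listed sum above 1100 bases, and only 2 exceeded 1000; how the list was made is not given in the sources used here. In 12 of the 55 (21.8%) the listed sum was a multiple of 3, against 37.0% of rings of 2 to 5 exons. Where the annotated exons between the ends were wholly coding, their sum was a multiple of 3 in 15 of 44 rings (34.1%). The value was 39.6% for such rings of 2 to 5 listed exons.

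The deposited spliced length did not have one meaning across the 55. In all 42 rings whose identifier begins with novel_circ it was the listed exon sum minus the number of exons, that is, 1 base less per exon. Among the 13 rings with a known (mmu) identifier it equalled the annotated exons between the ends in 8. In 2 of those 13 it equalled the genomic span, at 22235 bases in Srbd1 (mmu_circ_0000829) and 19457 bases in Ttc3 (mmu_circ_0000714), whose listed exons summed to 615 and 497 bases. The genomic span from acceptor to donor ran from 1691 bases in Acy1 (novel_circ_0014096), an aminoacylase gene, to 79893 bases in Tasp1 (mmu_circ_0001073), which encodes a protease. The next longest were Tlk1 novel_circ_0008746 (48575 bases) and Vwa8 novel_circ_0003652 (43802 bases). The median span was 16498 bases, above the 8185 bases of rings of 2 to 5 listed exons and the 6225 bases of rings of 1 listed exon. Listed exons covered a median of 2.95% of the span.

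The listed exons were often not the full annotated set. Both ends lay at exon ends of 1 GENCODE M21 transcript in 51 of the 55 rings, of which 25 listed as many exons as that transcript holds between the ends, 17 listed fewer and 9 listed more. Aass listed 6 where the transcript holds 10, and Tlk1 novel_circ_0008746 listed 6 where it holds 12. Gigyf2 listed 6 against 5, and Bckdhb novel_circ_0014841 listed 7 against 5. The reverse case was far more common in the table. Of 2100 rings whose ends enclosed 6 or more annotated exons, 43 listed 6 or more and 2057 listed 5 or fewer. The 43 had a median level of 340 CPM and reads in a median of 8 libraries, whereas the 2057 had a median of 11.7 CPM and reads in a median of 2. Among those 2057, 884 enclosed more than 1000 bases of annotated exon, compared with 3 of the 43. The number of listed exons thus separated rings by abundance and by length as well as by extent in the gene, and results below are given for listed exons and, where it changes them, for annotated exons. The comparison classes had the same mismatch. Of 2448 rings of 1 listed exon with both ends in 1 transcript, 2206 enclosed more annotated exons than listed. The same held for 4024 of 7352 such rings of 2 to 5 listed exons.

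**Figure D1:**
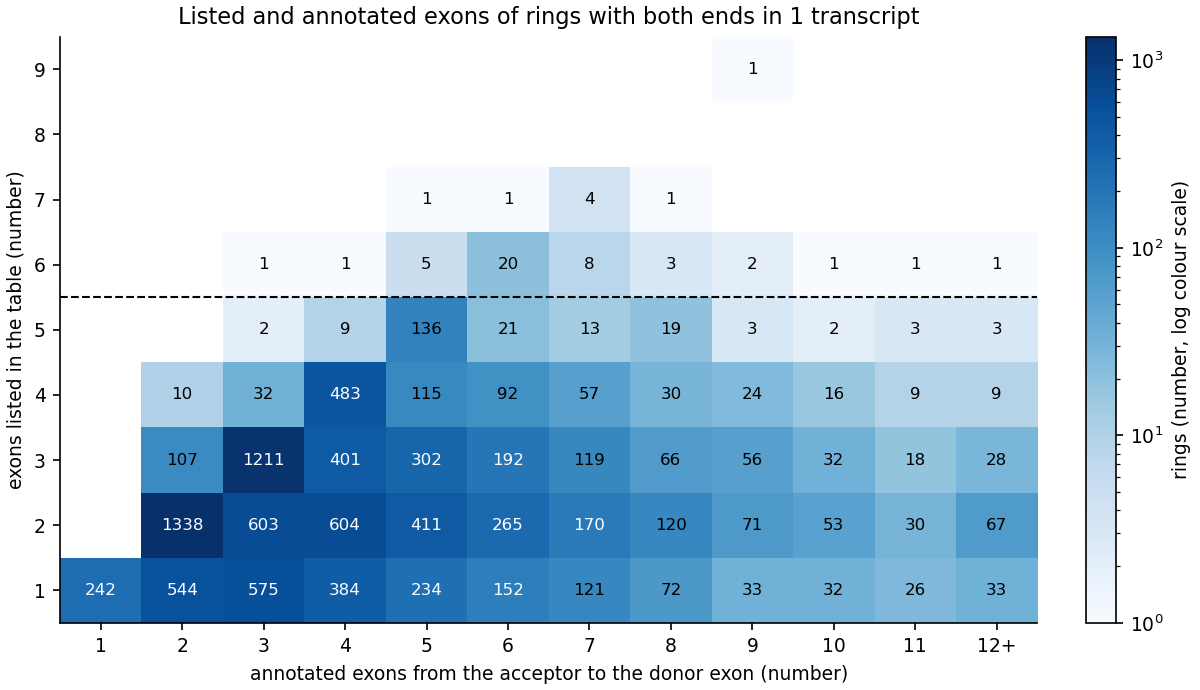
Number of exons listed in the deposited table (vertical) against annotated exons from the acceptor to the donor exon (horizontal, 12+ is 12 or more) for the 9851 rings with both ends in 1 transcript, each cell holding the number of rings. The dashed line marks the limit of 6 listed exons, and 2057 rings to the right of 5 annotated exons lie below it against 43 above.

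Within their genes the rings began at exon 2 more often than shorter rings and had longer median flanking introns. These are values without a test because rings share hosts. The acceptor exon was exon 2 of the transcript in 21 of 51 rings (41.2%), against 27.3% for rings of 2 to 5 exons and 30.3% for rings of 1. Of the 10 most abundant, Strn3, Psd3, Bckdhb, Nfkb1, Glt1d1, Aass and Pdia5 began at exon 2, and Gigyf2, Dcaf8 and Abcc2 at exons 4, 5 and 12. The intron before the acceptor had a median of 10097 bases and the intron after the donor 7412 bases, compared with 6600 and 4952 bases for rings of 2 to 5 exons. The lower quartile of the upstream intron was 2526.5 bases, against 2670 bases. It exceeded every intron inside the ring in 31 of 51 rings, against 4773 of 7352 rings of 2 to 5 exons. In Oxr1 (novel_circ_0003897) the upstream intron reached 143812 bases. All 51 hosts were protein-coding genes. No donor was a last exon, and in 44 of the 51 rings with both ends in a transcript (86.3%) every annotated exon base between the ends was coding. The acceptor was used by at least 1 other ring in 35 of 55 (63.6%) and the donor in 28 (50.9%). The corresponding shares were 45.5% and 38.8% for rings of 2 to 5 exons.

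Of the 51 hosts, 47 gave 1 ring and 4 gave 2, and in each of these 4 both rings shared the acceptor. Pdia5 favoured the 6-exon ring, which took 75.1% to 90.1% of the pair's reads in the 8 libraries other than control 3. Tlk1, which encodes a nuclear serine/threonine kinase, gave 45.7% to 92.1% of the pair to novel_circ_0008746, and Vwa8 50% to 100% to novel_circ_0003651. In Rmdn2, a gene of the microtubule dynamics regulator family, novel_circ_0005333 held 40.9% to 68.4%. Only the Pdia5 pair kept more than 75% in one ring in each of these libraries.

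Most of the rings came from hosts in no role list. Of the 55, 12 fell in the 9 host role lists, which are described here by counts only. Amino acid, urea and carbohydrate metabolism had 5 of its 63 genes as hosts, holding 28.1% of the reads of the 55 rings, of which Aass alone held 22.6% and the other hosts together 5.55%. Over the whole table, rings of this list's genes held 4.51% of the reads. The hosts were Aass, the bifunctional enzyme of lysine breakdown; Bckdhb, a subunit of the branched-chain ketoacid dehydrogenase; Kynu, kynureninase of tryptophan breakdown; Cps1, the first enzyme of the urea cycle; and Aldh1l1 of folate metabolism. RNA processing and translation had 1, Gigyf2, a translational repressor, with 22.1% of the reads of the 55 (the list held 3.44% over the whole table). Drug metabolism and transport had Abcc2, the canalicular export pump (3.21%), and lipid metabolism had Acadm, the medium-chain acyl-CoA dehydrogenase (1.10%). Vesicle traffic and cytoskeleton had Dennd1b, a Rab exchange factor, and Clasp2, a microtubule plus-end protein. Chromatin had the coactivator Ncoa3, and kinases and phosphatases had the AMPK subunit Prkag2. The lists of plasma proteins and of the ubiquitin system, with rings of 5 or fewer exons from 38 and 57 genes, had none. The lists are incomplete, so an absence holds for the listed genes only. Tlk1, a kinase gene, and Dcaf8, a receptor of a cullin ligase, host rings of 6 or more exons and are in no list.

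The rings were abundant for their number by listed exons, and not by annotated exons. They held 5.74% of all back-splice reads, although they made up 0.486% of rings. A back-splice junction is 1 site per ring, so CPM is compared between rings without a length term. Their median level was 363 CPM, against 18.2 CPM for rings of 2 to 5 exons and 9.36 CPM for rings of 1, and 37 of 55 (67.3%) had reads in 8 or more libraries against 16.7% and 5.29%. By annotated exons the order turned, with a median of 12.1 CPM for rings enclosing 6 or more and 16.4 CPM for rings enclosing 2 to 5, and reads in a median of 2 libraries in both. Levels ran from 7.16 CPM in Rab3gap1 (novel_circ_0006615, seen in 1 library) to 13210 CPM in Aass. Above 1000 CPM lay 15 rings, between 100 and 1000 CPM 24, and below 100 CPM 16. The 2 leading rings took 44.7% of the reads of the 55, and the first 10 took 71.8%.

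Aass novel_circ_0012103 (chr6:23107140-23122737) stood at 11143, 13895 and 14901 CPM in control 1 to 3, at 16767, 12700 and 13354 CPM in APAP 1 to 3, and at 13947, 10424 and 11760 CPM in dmPGE2+APAP 1 to 3. Gigyf2 mmu_circ_0000057 (chr1:87364104-87380008) stood at 12930, 13434 and 9858 CPM in controls, 12819, 12964 and 12791 CPM after APAP, and 12752, 11967 and 11656 CPM after dmPGE2+APAP. Both exceeded every other ring of 6 or more exons in each of the 9 libraries. For Aass the groups overlapped throughout. For Gigyf2 the 3 APAP libraries lay above the 3 dmPGE2+APAP libraries, with a fitted log2 difference of -0.02 ± 0.31 (SE). The third, Bckdhb novel_circ_0014841 (chr9), averaged 3355 ± 510 CPM in controls (SD, n = 3), 1866 ± 231 after APAP and 1948 ± 496 after dmPGE2+APAP.

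Psd3 mmu_circ_0001682, from a gene for an Arf exchange factor, averaged 1911 ± 1754 CPM in controls, 2552 ± 215 after APAP and 2667 ± 242 after dmPGE2+APAP. Its wide control spread came from 0 reads in control 3, where a count of 0 allows up to 688 CPM. Dcaf8, a substrate receptor of a cullin ligase, averaged 2507 ± 809, 1473 ± 129 and 1850 ± 156 CPM in the same order. Nfkb1, which encodes the p105 and p50 subunit of NF-κB, averaged 1509 ± 712, 1841 ± 500 and 2162 ± 106 CPM. Abcc2 averaged 1986 ± 355, 1783 ± 375 and 1639 ± 202 CPM. Across these first 10 rings the highest group mean was 1.06 to 1.80 times the lowest. No fitted log2 change of the 10 exceeded 0.61 in size, with SE of 0.30 to 0.38 and adjusted p of 0.801 to 1 in edgeR's quasi-likelihood test.

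**Figure D2:**
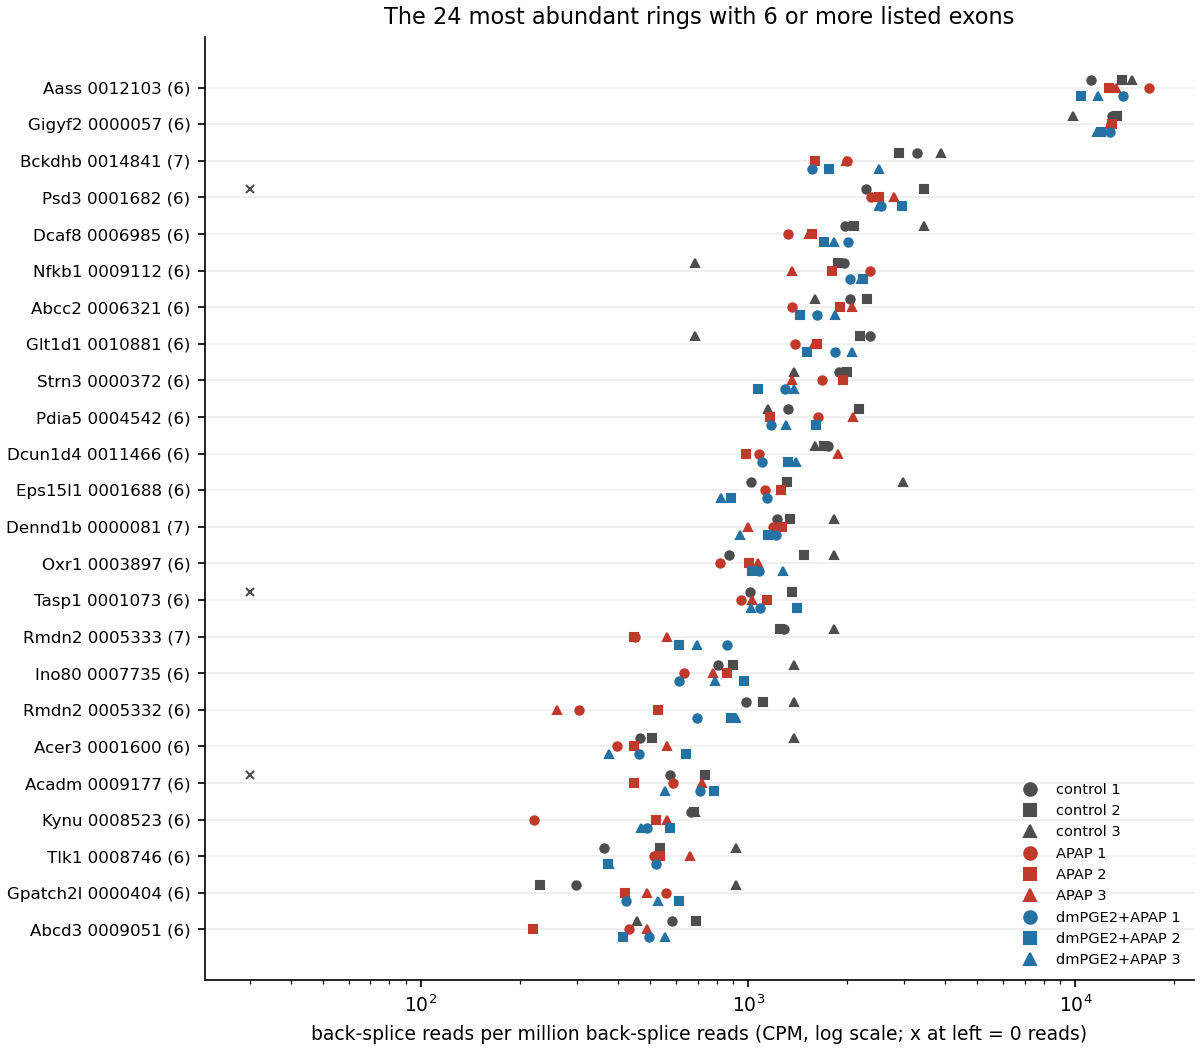
Level of the 24 most abundant rings of 6 or more listed exons (vertical, with the digits of the identifier and the number of listed exons in brackets) in CPM on a log axis, 1 point per library. Colours give the group and shapes the library number, and crosses at the left stand for 0 reads; Aass and Gigyf2 lie apart from the rest at 9858 CPM or more in all libraries.

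The share of back-splice reads in these rings was highest in controls. It was 5.80%, 6.40% and 5.82% in control 1 to 3, 5.79%, 5.47% and 5.67% in APAP 1 to 3, and 5.67%, 5.42% and 5.49% in dmPGE2+APAP 1 to 3. As point values, every control library lay above every treated one. The nearest pair was control 1 and APAP 1, whose Wilson intervals at 95% overlapped (5.68% to 5.91% and 5.65% to 5.93%). The interval of control 3, from 254 of 4362 reads, ran from 5.17% to 6.56% and spanned that of every treated library. These intervals cover counting error only. Group means were 6.01% ± 0.344, 5.64% ± 0.159 and 5.53% ± 0.131 (SD, n = 3 each), with an exact permutation p of 0.0321 over the 3 groups (two-sided). Adjusted over the 6 such tests made here, p was 0.0963. Each pair of groups with 3 libraries a side could reach no p below 0.1, the value for both comparisons with control.

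The difference in share depended on which rings were counted. The 10 most abundant rings of the table include Aass and Gigyf2, which held 44.7% of the reads of the 55 rings. Without those 10 the share was 3.96%, 3.23% and 3.41% in control, APAP and dmPGE2+APAP (exact permutation p = 0.00714). Without the rings of Rmdn2 it was 5.83%, 5.60% and 5.43% (exact permutation p = 0.168), and with both removed 3.67%, 3.14% and 3.25% (exact permutation p = 0.00714). For rings enclosing 6 or more annotated exons, whatever was listed, it was 12.5%, 11.8% and 12.1% (exact permutation p = 0.182). The mean number of listed exons per read moved the same way, at 3.13 ± 0.0749 in controls, 3.03 ± 0.0206 after APAP and 3.04 ± 0.0125 after dmPGE2+APAP (exact permutation p = 0.0214, adjusted 0.0963). Without control 3 its control mean was 3.09, and the difference of APAP from control went from -0.1 to -0.0576 exons (exact permutation p = 0.0321). Leaving out single libraries gave exact permutation p of 0.025 to 0.164 for the share. Among them, p was 0.154 without control 2, 0.0893 without APAP 1, 0.125 without APAP 3, 0.164 without dmPGE2+APAP 2 and 0.15 without dmPGE2+APAP 3.

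**Figure D3:**
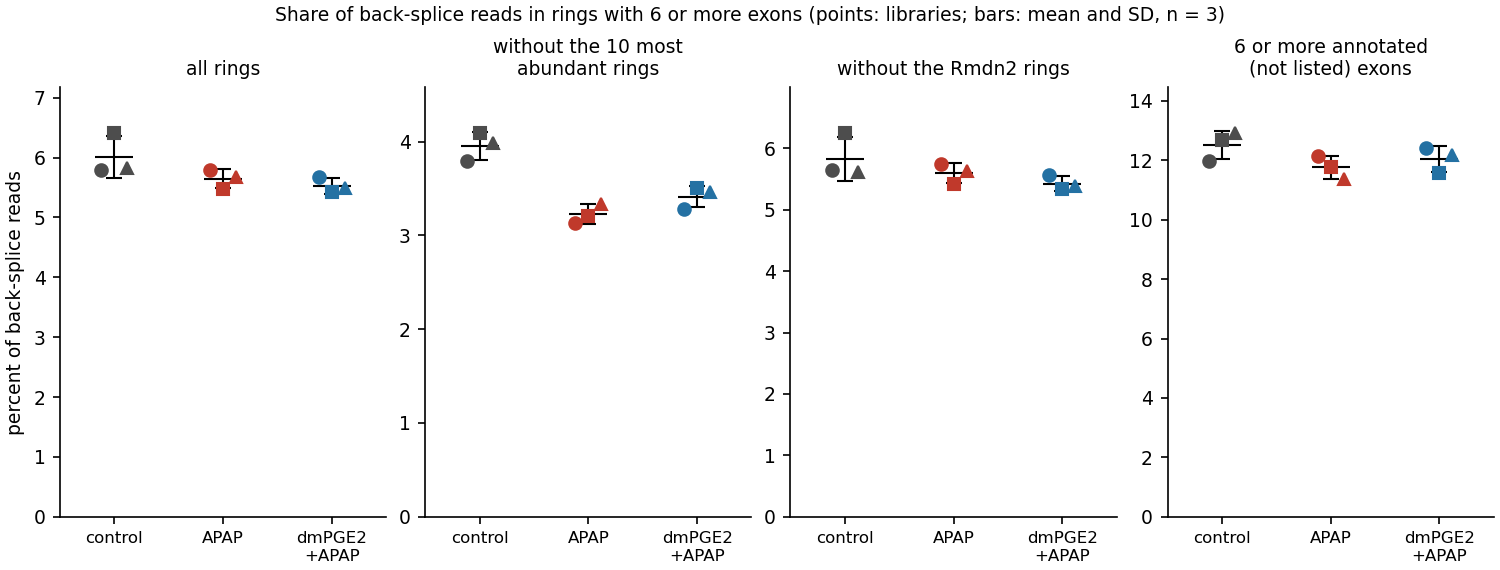
Percent of back-splice reads held by rings of 6 or more exons in each library (points; circle, square and triangle are libraries 1, 2 and 3) with mean and SD of 3 libraries, on axes that start at 0. Panels show all rings, the table without its 10 most abundant rings (Aass and Gigyf2 among them), without the Rmdn2 rings, and rings that enclose 6 or more annotated exons. Points of controls lie above those of all treated libraries in the first 2 panels.

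Related measures gave larger p. After thinning each library to 4362 reads, these rings made up 2.46% ± 0.8 of detected rings in controls, 2.01% ± 0.143 after APAP and 1.85% ± 0.148 after dmPGE2+APAP (exact permutation p = 0.268, and 0.907 with another random draw), with control 3 highest at 3.38%. The smallest deposited count above 0 was 2 in every library. Control 3 kept that floor because it was not thinned, while thinning left single-read rings in the others. Detection limits were thus unlike, with 739 rings in control 3 against 1675 to 1888 elsewhere, so the value of control 3 is not comparable with the rest. Within the 41 hosts that also gave 317 shorter rings, the 45 long rings held 52.6% ± 1.34, 53.9% ± 1.27 and 51.7% ± 1.53 of the hosts' ring reads (exact permutation p = 0.225). The read-weighted spliced length, as deposited, was 788 ± 114, 729 ± 26.7 and 722 ± 16.6 bases (exact permutation p = 0.543). Without control 3, which stood at 918 bases, the control mean was 722.9 bases and lay below that of APAP (exact permutation p = 0.939). With the sum of listed exons in place of the deposited length the means were 421 ± 8.17, 413 ± 1.02 and 413 ± 2.06 bases (exact permutation p = 0.114).

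The circular share sets back-splice reads against the deposited non-junction reads, as 2J/(2J+N), with J back-splice and N non-junction reads. It takes N to count reads at the 2 sites of the junction, which the sources used here do not state. The share could be read for 41 of the 55 rings. Aass, Bckdhb, Abcc2, Glt1d1, Dcaf8 and Cps1 are among the 14 that could not be read. A list was not used where it could not be split by library or where every count after the first had 3 digits. Whether a ring was readable thus depended in part on its non-junction reads. Each library was summed over those of the 41 with reads in it, 33 to 38 rings outside control 3 and 18 in control 3. The share was 83.9% and 82.5% in control 1 and 2, 79.1%, 80.2% and 71.1% in APAP 1 to 3, and 78.9%, 78.7% and 80.4% in dmPGE2+APAP 1 to 3. Control 3 stood at 9.27%, with 154 non-junction reads per ring against 50.7 to 62.1 elsewhere. The exact permutation p over the groups was 0.993 with control 3 and 0.15 without it.

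Single rings differed widely in this share. Over the 8 libraries other than control 3 it ran from 19.9% in Zfp638 (novel_circ_0012444) to 96.8% in Gigyf2, with a median of 63.8%, and exceeded 50% in 30 of 41. The 10 readable rings above 1000 CPM lay between 77.2% (Pdia5 novel_circ_0004542) and 96.8%, and included Nfkb1 at 92.8%, Psd3 at 88.7% and Strn3 at 88.7%. The 12 below 100 CPM lay between 19.9% and 62.4%. Back-splice reads enter both quantities. In Pdia5 the 6-exon ring had 77.2% and the 9-exon ring 41.1%, and in Tlk1 novel_circ_0008746 had 67.3% and novel_circ_0008750 28.9%.

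Among readable rings and by listed exons, those of 6 or more had a higher circular share than shorter rings in each of the 9 libraries. Of rings of 6 or more, 74.5% were readable, against 82.8% of rings of 2 to 5 and 89.1% of rings of 1. The part of this selection in the differences was not tested. The difference was 42.9 ± 14.8 percentage points against rings of 2 to 5 exons (SD over 9 libraries, range 6.39 to 57.2) and 54.2 ± 18.9 points against rings of 1. Both gave an exact sign-flip permutation p of 0.00391, the smallest that 9 libraries allow. Without the Gigyf2 rings the differences were 35.9 and 47.3 points. Within the 28 hosts that gave readable rings of both 6 or more and 2 to 5 exons the difference was 28.8 ± 12.4 points, above 0 in 8 of 9 libraries (exact permutation p = 0.00781).

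The direction turned when annotated exons were counted in place of listed ones. Rings enclosing 6 or more annotated exons differed from rings of 2 to 5 by -9.17 ± 9.2 points, above 0 in 1 of 9 libraries (exact permutation p = 0.0195, n = 9 libraries). Against rings of 1 annotated exon the difference was -30 ± 16.4 points, above 0 in 0 of 9 libraries (exact permutation p = 0.00391, n = 9). Medians over rings gave smaller differences by listed exons. Among rings with 10 or more back-splice reads in a library the median share of rings of 6 or more exceeded that of 2 to 5 by 21.4 ± 2.39 points and that of 1 by 18.7 ± 5.27 points (exact permutation p = 0.00391 for both, n = 9 libraries). Among rings with 50 or more back-splice reads in a library the median share of rings of 6 or more listed exons exceeded that of 2 to 5 by 4.76 ± 1.65 points (exact permutation p = 0.00781, n = 8 libraries), and that of 1 by 2.26 ± 2.85 points (exact permutation p = 0.0703). In control 1 the readable rings of 6 or more exons averaged 143 back-splice and 54.9 non-junction reads, against 27.2 and 92.6 for rings of 2 to 5 exons.

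**Figure D4:**
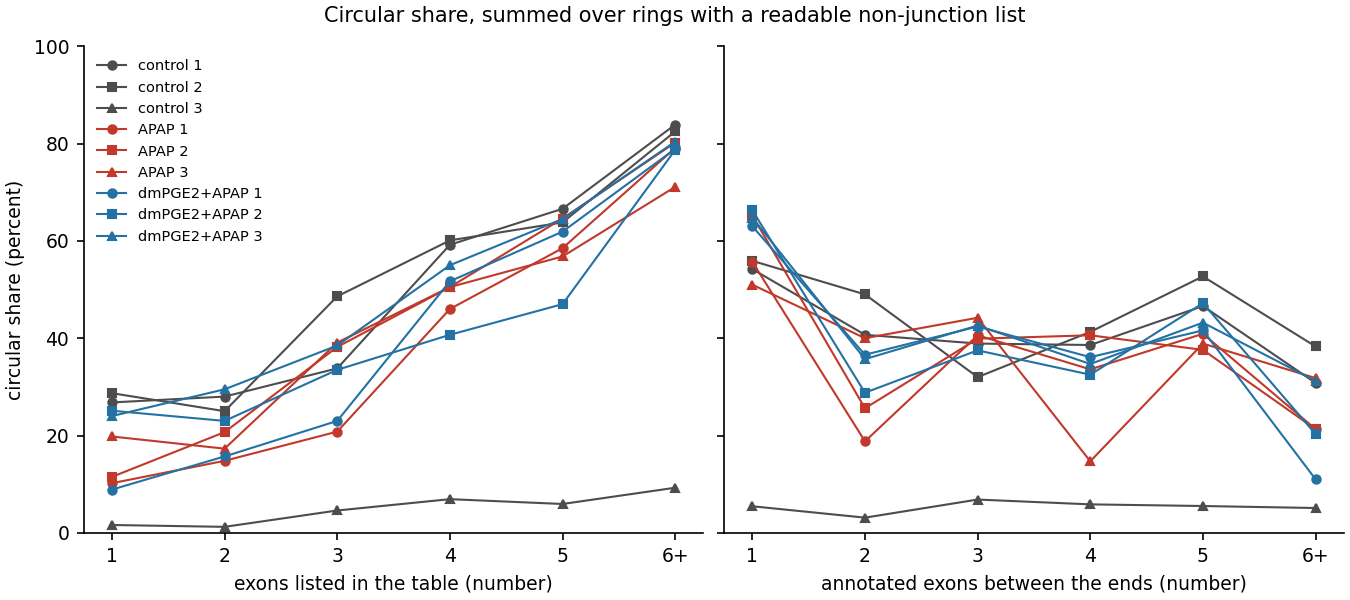
Circular share in percent, summed over readable rings, by number of exons listed in the table (left) and by number of annotated exons between the ends (right), 1 line per library with colours for the group and shapes for the library number. By listed exons the 8 libraries other than control 3 reach 71.1% to 83.9% at 6 or more, and by annotated exons they lie at 11% to 38.3% there.

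Ring by ring, none of the 50 tested rings of 6 or more exons passed the threshold of 0.05 on the adjusted p in any comparison with all 9 libraries. In edgeR's quasi-likelihood test across 4331 rings, 0.139% of all rings passed for APAP against control. The rule called 0.0693% for dmPGE2+APAP against APAP, 0.115% for dmPGE2+APAP against control and 0.208% for any group. At an unadjusted p under 0.05 there were 3, 2, 1 and 2 of the 50, against backgrounds of 5.06%, 3.74%, 4.34% and 2.66%. DESeq2 gave an adjusted p to 46, 50, 50 and 48 of the 50 and called 2, 0, 0 and 1 of these. Of all rings to which it gave one, it called 0.565%, 0%, 0.0231% and 0.281%. Limma-voom called 0 of the 50 in each, beside 0.0924%, 0%, 0.0462% and 0.139% of all. The remaining 5 of the 55 had too few reads for the filter.

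The 2 rings of Rmdn2 had the smallest p for APAP against control. Ring novel_circ_0005332 (chr17) stood at 984, 1108 and 1376 CPM in control 1 to 3, 304, 530 and 260 CPM after APAP and 697, 888 and 915 CPM after dmPGE2+APAP, and novel_circ_0005333 at 1288, 1246 and 1834, then 451, 448 and 563, then 863, 615 and 697 CPM. In CPM, scaled by library totals, the 3 groups did not overlap for either ring, with dmPGE2+APAP between the others. Control 3 held 6 and 8 reads of them. The fits use TMM scaling, where the factor of 2.18 lowers control 3 beside the other libraries, and overlap was not examined on that scale. The log2 change was -1.41 ± 0.45 (SE; edgeR adjusted p = 0.349) and -1.33 ± 0.43 (edgeR adjusted p = 0.382) for APAP against control. For dmPGE2+APAP against APAP it was 1.21 ± 0.44 (edgeR adjusted p = 1) and 0.65 ± 0.42 (edgeR adjusted p = 1), so neither passed with all 9 libraries. For dmPGE2+APAP against control it was -0.20 ± 0.43 and -0.68 ± 0.42 in the same order. Without control 3 both passed for APAP against control, at -1.57 (edgeR adjusted p = 0.00939) and -1.48 (edgeR adjusted p = 0.00735). The most abundant ring of Rmdn2 lists 4 exons (novel_circ_0005331) and also lay lower after APAP without overlap, at 5411, 6770 and 5645 CPM against 9531, 9425 and 15590 CPM in controls, and 6048, 9445 and 8651 CPM after dmPGE2+APAP.

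Other changes were smaller or rested on few reads. Bckdhb stood at 3283, 2885 and 3897 CPM in controls, 2006, 1599 and 1992 CPM after APAP, and 1568, 1766 and 2509 CPM after dmPGE2+APAP. In CPM by library totals every control library lay above every treated one, with 17 reads in control 3. Overlap was not examined on the TMM scale of the fit, where the log2 change for APAP was -0.61 ± 0.36 (edgeR adjusted p = 0.801). It reached -0.77 ± 0.20 (edgeR adjusted p = 0.0347) without control 3 among the 1487 rings with reads in all other libraries. The most abundant ring of Bckdhb lists 5 exons (mmu_circ_0001822), and its groups overlapped. It stood at 5257, 5855 and 8941 CPM in controls, 5954, 5336 and 5789 CPM after APAP, and 6231, 5358 and 5689 CPM after dmPGE2+APAP. Cps1 novel_circ_0007432 stood at 162, 246 and 0 CPM in controls, 386, 375 and 635 CPM after APAP, and 340, 595 and 322 CPM after dmPGE2+APAP. Its log2 change was 1.28 ± 0.58 for APAP (edgeR adjusted p = 0.801), from 25 and 32 reads in control 1 and 2 and 41 to 44 reads in the APAP libraries. The count of 0 in control 3 allows up to 688 CPM, above each treated value. Summed levels of the rings of hepatocyte markers, which include Cps1, were also higher in every APAP library than in every control, and the part of this in the Cps1 value was not tested.

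**Figure D5:**
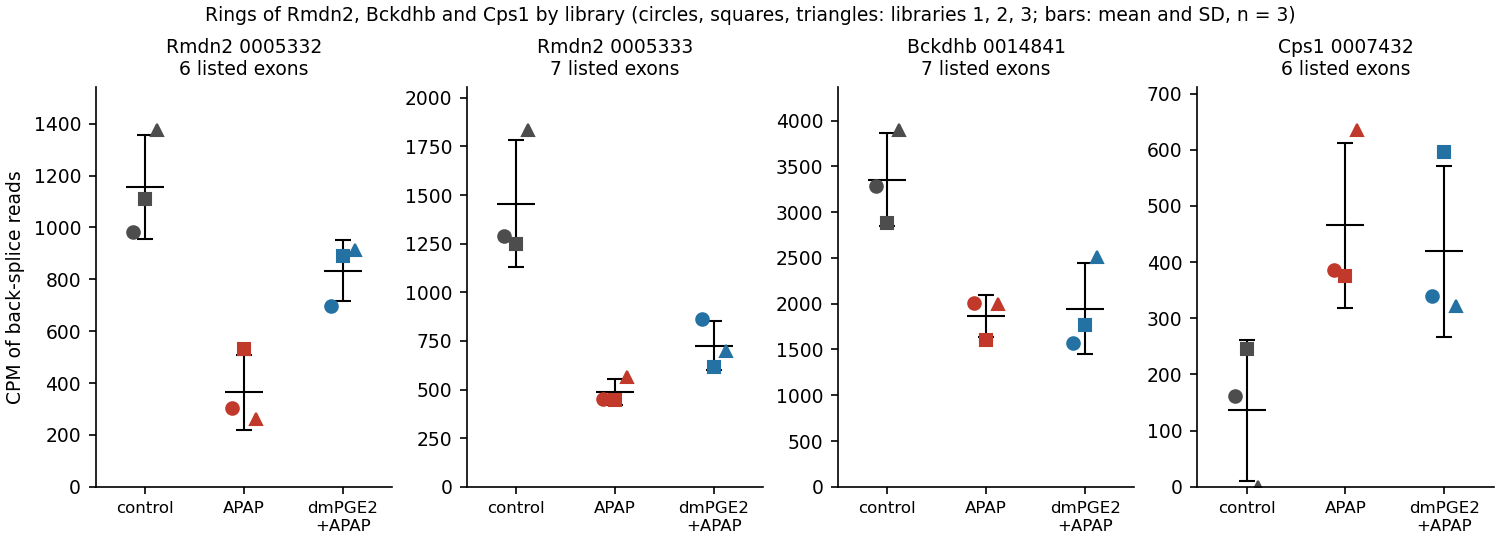
CPM of back-splice reads for both Rmdn2 rings, Bckdhb and Cps1 in each library (circle, square and triangle are libraries 1, 2 and 3), with mean and SD of 3 libraries per group, on axes that start at 0. In CPM by library totals the 3 groups do not overlap for the Rmdn2 rings, and for Bckdhb and Cps1 controls do not overlap either treated group. Control 3 held 6 and 8 reads of the Rmdn2 rings and 17 of Bckdhb. Its count of 0 for Cps1 allows up to 688 CPM, so non-overlap there rests on control 1 and 2.

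Rings whose CPM ranges did not overlap were counted with and without control 3, because a ring with 0 reads there cannot lie wholly higher in controls, and 25 of the 50 rings had reads in control 3 against 15.4% of all tested rings. Shares with control 3 are therefore not comparable with the background. With it, 5 of the 50 lay lower after APAP than in controls (1.82% of all) and 2 higher (6.93% of all). Without it, 10 of the 50 lay lower (20%, beside 10.8% of all) and 4 higher (8%, beside 8.4% of all). Both Rmdn2 rings, Bckdhb, Dcaf8 and Kynu lay lower in both counts, and Cps1 and Slc25a13, which encodes the mitochondrial aspartate and glutamate carrier, higher in both. Kynu stood at 667, 685 and 688 CPM in controls and 221, 521 and 563 CPM after APAP, a log2 change of -0.57 ± 0.49. For dmPGE2+APAP against control, 6 lay lower (1.73% of all) and 2 higher (8.1% of all) with control 3. Without it, 14 lay lower (28%, beside 10.4% of all) and 3 higher (6%, beside 9.47% of all). Bckdhb, Kynu, Dcun1d4, Dennd1b and both Rmdn2 rings lay lower in both counts, and Cps1 and Nfkb1 higher in both. For dmPGE2+APAP against APAP 4 lay higher (8%, beside 5.03% of all), namely both Rmdn2 rings, Srbd1 and Dcaf8, and Clasp2 and Gigyf2 lay lower (4%, beside 4.13% of all). None of these passed the adjusted edgeR test with all 9 libraries. The part of ring abundance in these counts was not tested.

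The median log2 change of the 50 rings was -0.06 for APAP against control, beside 0.17 over all rings tested, and 29 of 50 (58%) were below 0 against 42.5% of all. It was 0.22 beside 0.08 for dmPGE2+APAP against APAP, with 15 of 50 (30%) below 0 against 45.7%. For dmPGE2+APAP against control it was 0.11 beside 0.25, with 21 of 50 (42%) below 0 against 38.2%. Without control 3 the medians for APAP against control were -0.27 beside -0.06, and those for dmPGE2+APAP against control -0.10 beside 0. These comparisons share libraries. Scaling by library totals alone moved the median of all rings for dmPGE2+APAP against control from 0.25 to 0.13, and that of the 50 rings from 0.11 to -0.03. By host role, the 4 tested rings of amino acid, urea and carbohydrate metabolism had a median of -0.10 for APAP against control, with 2 above and 2 below 0, and those of Abcc2, Acadm, Ncoa3 and Prkag2 were at -0.10, 0.04, 0.55 and -0.24. No ring of any list passed.

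Some rings with the smallest p rested on few reads or on groups with a wide spread. Msl1 novel_circ_0001688 and Rnf214 novel_circ_0014415 had reads in 3 libraries each, were listed at 0 in all APAP libraries and reached 10 and 15 reads in their highest library. Ubap2 novel_circ_0010227 stood at 259, 53.9 and 0 CPM in controls and 331, 256 and 505 CPM after APAP (log2 change 1.27 ± 0.67, edgeR adjusted p = 0.801). Clasp2 novel_circ_0014180 stood at 120, 274 and 173 CPM after APAP and 58.1, 40.4 and 78.4 CPM after dmPGE2+APAP, from 4 to 30 reads (log2 change -1.60 ± 1.09, edgeR adjusted p = 1).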

How the data were processed

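Per the file headers, the deposited table gives for each ring its position, strand, host gene, listed exons and a count of back-splice reads per library. The authors' counts are whole numbers and were used as deposited; 9 further per-library columns were not used. HISAT2 and the build GRCm38 (mm10) are named in the submitters' processing notes, and the ring caller is not given in the sources used here. Control columns carry a code that no label explains and were assigned by elimination. Positions were rewritten to start at base 1, and ends and junction bases were matched to GENCODE M21. Deposited lists of non-junction reads were unreadable in 1753 rings, 14 of them with 6 or more exons.

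Rings with 5 or more reads in 3 or more libraries (4331) entered edgeR 4.0.16 (R 4.3.3), with TMM scaling, 1 mean per group over all 9 libraries, the quasi-likelihood F test and Benjamini-Hochberg adjustment over all rings tested; the code was tested on simulated data. DESeq2 1.42.0 and limma 3.58.1 were alternatives. Single values used exact permutation tests written out in Python 3.11.15, and Wilson intervals used scipy 1.17.1. The rings, lists and examples were chosen with earlier results of these data known. Named rings are the 6 with the smallest p per comparison, the 10 most abundant, the 3 most extreme in exon number, length and span, up to 3 per host role list and the hosts with most rings; the rings of Acer3, Acy1, Aldh1l1, Dcun1d4, Oxr1, Rab3gap1 and Zfp638 were named after their values were seen.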

Additional observations from a re-analysis of the deposited data

How the results depend on the processing

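The number of rings of 6 or more exons that passed the edgeR test for APAP against control was 0 with all libraries and 2 of 50 with library totals only (0.277% of all rings passed), 2 of the 46 given an adjusted p in DESeq2 (0.565%), 0 to 2 when single libraries were left out (2 without control 3, 0.231%) and 3 of 37 without control 3 among rings read in all 8 other libraries (0.538%). For any group it was 1 of 48 in DESeq2 (0.281%), 0 to 2 with single libraries left out (2 without control 3, 0.208%) and 2 in the last setting (0.403%). It remained 0 for dmPGE2+APAP against APAP and against control under each alternative run. With the replicate number as a block it was 0 in each of the 4 tests, and the block gave an exact permutation p of 0.0556 for the mean exon number; equal numbers showed no pairing of libraries (correlations of deviations from group means -0.04 to 0.02). The exact permutation p for the share of reads was 0.0964 for 5 or more exons, 0.182 for annotated exons, 0.168 without the Rmdn2 rings and 0.025 to 0.164 with single libraries left out. With 8 or more exons, which is 1 ring, the order of the groups reversed (exact permutation p = 0.693). With single libraries left out, p ran from 0.0214 to 0.0714 for the exon number and from 0.0464 (without control 2) to 0.564 for thinned detection, which was 0.907 with another random draw and 0.911 without control 3 at the next smallest depth. At that depth APAP 3 was the library left unthinned. The circular share difference from rings of 2 to 5 exons was 9.03 points with 8 or more exons, and it reversed to -9.17 points, or -2.65 points in medians, with annotated exons. That from rings of 1 exon was 2.26 points in medians at 50 reads or more and reversed to -30 points with annotated exons. Over single libraries left out these differences ran from 41.1 to 47.4 and from 52.2 to 60 points. The causes were not tested. Alternatives for annotated exons, the Rmdn2 and Gigyf2 rings, shared hosts, 50 reads, rings read in all 8 other libraries and ranges without control 3 were chosen after seeing the data. Control 3, with 4362 reads, limits every level in the control group.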
